A study of Mus musculus with 6 samples.

Results

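Ribosome-bound mRNA of mouse liver was read for 10 genes of iron and metal handling: Hamp, Trf, Tfrc, Tfr2, Slc40a1, Fth1, Ftl1, Cp, Mt1 and Mt2. They were chosen by symbol, and the 72 transcripts that carry these symbols were summed per gene. All 10 were found among the 35970 symbols of the deposited table, and all 10 were among the 10598 symbols with a mean of at least 1 TPM over the 6 libraries, which were tested. TPM values are length-corrected shares of a library's total, so levels of different genes can be set side by side, but the number of reads behind a value is unknown.

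The study asked what repression of Neurl1b, which encodes a ubiquitin ligase of the Notch pathway, does to hepatocytes that repopulate an injured liver. There were 3 Neurl1b CRISPRi mice and 3 non-targeting mice, 1 library each. Every mouse was Fah-/-;dCas9+, so it lacked the final enzyme of tyrosine breakdown and carried a Cas9 that binds DNA without cutting it (CRISPR interference). Every mouse also received 10 µg of a transposon plasmid with Fah, GFP-L10a (a ribosomal protein fused to GFP) and a guide RNA, together with an AAV8 virus that expresses Cre from the hepatocyte promoter TBG. The guide in the plasmid, against Neurl1b or non-targeting, is the only difference that the labels name. The drug nitisinone, given at 7.5 µg/mL until then, was withheld from injection on, and livers were collected 4 weeks later. Tagged ribosomes were pulled down from 400 mg of liver with an antibody to GFP (TRAP). The labels used here name no age, sex or strain background. Both groups share the Fah defect, the drug withdrawal and the Cre virus, with no uninjured group among the samples analysed here.

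Iron leaves cells through a single known exporter, ferroportin (Slc40a1), and the liver controls that exit for the whole body by secreting hepcidin (Hamp), a peptide that blocks ferroportin and has it degraded. Hepatocytes raise Hamp when bone morphogenetic proteins (BMPs) from sinusoidal endothelial cells signal through SMAD proteins, and when interleukin 6 signals through STAT3. Inside cells, iron regulatory proteins bind hairpins called iron-responsive elements when iron is scarce, which blocks translation of ferritin and protects the mRNA of the transferrin receptor. Metallothioneins bind zinc, copper and cadmium, and their genes are switched on by metals through MTF1, by glucocorticoids and in the acute phase response.

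The hairpins are shown first because elements of this kind are known in the ferritin, ferroportin and transferrin receptor mRNAs, whose levels follow. A search of the GENCODE vM21 transcripts (GRCm38, matched to the table by transcript ID without version) looked for a bulged C, a loop of CAGTGN and paired stems of 5 bases on each side of the bulge, with at least 4 lower pairs. It found such hairpins in 80 of 141767 transcripts (0.0564%). Fth1, Ftl1 and Slc40a1 each carried 1 in the 5′ UTR of the main coding transcript, and Tfrc carried 4 in the 3′ UTR. The 27 letters are given 5′ to 3′ on the transcript strand, with the loop in capitals.
Fth1, 5′ UTR, chr19:9982733-9982759 (+): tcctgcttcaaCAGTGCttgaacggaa
Ftl1, 5′ UTR, chr7:45459780-45459806 (-): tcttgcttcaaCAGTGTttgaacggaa
Slc40a1, 5′ UTR, chr1:45925466-45925492 (-): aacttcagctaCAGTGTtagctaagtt
Tfrc, 3′ UTR, chr16:32631220-32631246 (+): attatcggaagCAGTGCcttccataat
Tfrc, 3′ UTR, chr16:32631599-32631625 (+): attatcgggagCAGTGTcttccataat
Tfrc, 3′ UTR, chr16:32631664-32631690 (+): tatatcggagaCAGTGAtctccatatg
Tfrc, 3′ UTR, chr16:32631711-32631737 (+): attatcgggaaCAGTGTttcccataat

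Promoters are shown for the hormone gene and for the metallothioneins, whose levels varied most. Hamp has a near copy in mice, Hamp2, whose transcript matched that of Hamp at 93.1% of aligned positions and whose promoter matched at 89.7%. The windows are the 250 bases before the RefSeq transcription start (GRCm38.p6), 5′ to 3′ on the gene's strand. Capitals mark, on either strand, the core of a BMP-responsive element (GGCGCC) and a STAT site (TTCTTGGAA) for Hamp and Hamp2.
Hamp, chr7:30944030-30944279 (-): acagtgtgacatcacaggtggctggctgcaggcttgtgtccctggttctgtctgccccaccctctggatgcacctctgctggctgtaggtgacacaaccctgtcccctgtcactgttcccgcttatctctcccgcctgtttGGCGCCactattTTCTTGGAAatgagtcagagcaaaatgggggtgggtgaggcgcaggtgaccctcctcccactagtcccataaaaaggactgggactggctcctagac
Hamp2, chr7:30924182-30924431 (-): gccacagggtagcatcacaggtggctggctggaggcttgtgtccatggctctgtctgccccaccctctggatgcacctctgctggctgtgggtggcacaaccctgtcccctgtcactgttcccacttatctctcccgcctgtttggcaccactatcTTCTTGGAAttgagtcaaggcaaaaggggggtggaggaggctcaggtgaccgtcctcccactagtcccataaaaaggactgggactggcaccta
The Hamp window held both motifs, and the Hamp2 window held the STAT site only. Of 32851 promoter windows of this length, 9.59% held GGCGCC, 0.365% held TTCTTGGAA and 3 windows held both. For Mt1 and Mt2 the capitals mark the core of the metal-responsive element, TGCACNC or TGCGCNC, on either strand.
Mt1, chr8:94178839-94179088 (+): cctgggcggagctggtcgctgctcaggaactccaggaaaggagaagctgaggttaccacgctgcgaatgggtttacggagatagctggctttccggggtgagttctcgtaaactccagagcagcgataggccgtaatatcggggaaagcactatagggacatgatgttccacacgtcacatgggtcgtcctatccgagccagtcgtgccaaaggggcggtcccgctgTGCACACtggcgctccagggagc
Mt2, chr8:94172368-94172617 (+): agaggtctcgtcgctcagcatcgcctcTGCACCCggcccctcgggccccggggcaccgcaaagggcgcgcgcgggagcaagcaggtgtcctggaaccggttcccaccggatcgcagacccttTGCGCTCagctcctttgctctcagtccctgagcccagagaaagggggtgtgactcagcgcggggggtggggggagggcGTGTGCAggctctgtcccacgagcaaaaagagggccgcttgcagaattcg
Within these 250 bases Mt1 had 1 such core and Mt2 had 3, against at least 1 in 21.4% and at least 3 in 1.26% of all windows. Bases beyond the windows, on either side, were not searched for these motifs, so the counts do not cover the whole promoters. These promoters matched at 48.0% of aligned positions and the transcripts at 65.2%. The letters describe the sequence and do not show that a factor binds there.

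The targeted gene was read first. Neurl1b had 0.295, 0.351 and 0.307 TPM in the Neurl1b CRISPRi mice, against 1.22, 0.897 and 0.688 TPM in the non-targeting mice. The groups did not overlap, as for 17.1% of all tested genes (exact two-sided permutation p = 0.1, the smallest that 3 against 3 allows). Its mean of 0.627 TPM was below the filter of 1 TPM, so Neurl1b was not among the tested genes, and the precision of such low values is unknown. Non-targeting mouse 2 stood apart for the iron genes: it was the lowest or the highest library for 9 of the 10 genes, the lowest for 3 and the highest for 6. Over all 10598 tested genes it was the lowest for 3922 and the highest for 1175. That put it at an extreme for 48.1% of them, non-targeting mouse 3 for 45.1%, and each of the remaining mice for 17.8% to 34.4%. Each of the 10 genes is therefore given with and without this mouse, and so is each other gene whose printed fold change this mouse moved by over 1.5 times. TPM of all genes together also lay off centre, with a median log2 fold change of 0.18, which median-of-ratios scaling set to 0.00 after rounding. In bulk samples, fewer cells of a type and less RNA per cell cannot be told apart.

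In limma on log2(TPM + 1), none of the 10 genes passed an adjusted p (Benjamini-Hochberg over all tested genes) of 0.05, and over all tested genes 2 did (0.0189%). At an unadjusted p below 0.05 there were 4 of 10 (Slc40a1 and Fth1 higher in Neurl1b CRISPRi, Mt1 and Mt2 lower), against 13.3% of all tested genes, 10.1% higher and 3.19% lower. That count was 0 without Neurl1b CRISPRi mouse 3, 1 without Neurl1b CRISPRi mouse 1, and 2 without Neurl1b CRISPRi mouse 2. It was 2, 2 and 4 when non-targeting mouse 1, 2 or 3 was left out. The count over all tested genes moved as well. It was 1134 of 10563, 581 of 10543 and 725 of 10562 without Neurl1b CRISPRi mouse 3, 1 or 2. Without non-targeting mouse 1, 2 or 3 it was 4665 of 10558, 699 of 10635 and 920 of 10646. The groups did not overlap for 2 of 10 (Fth1 higher, Mt1 lower), against 17.1% of all tested genes, 12.5% higher and 4.57% lower. Of the 10, 4 had a log2 fold change above 0 and 6 below 0, with a median of -0.21, where 74% of all tested genes lay above 0 and 26% below. Together the 10 genes held 33156, 34345 and 40271 TPM in the Neurl1b CRISPRi mice, against 37782, 58694 and 32863 TPM in the non-targeting mice.

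**Figure D1:**
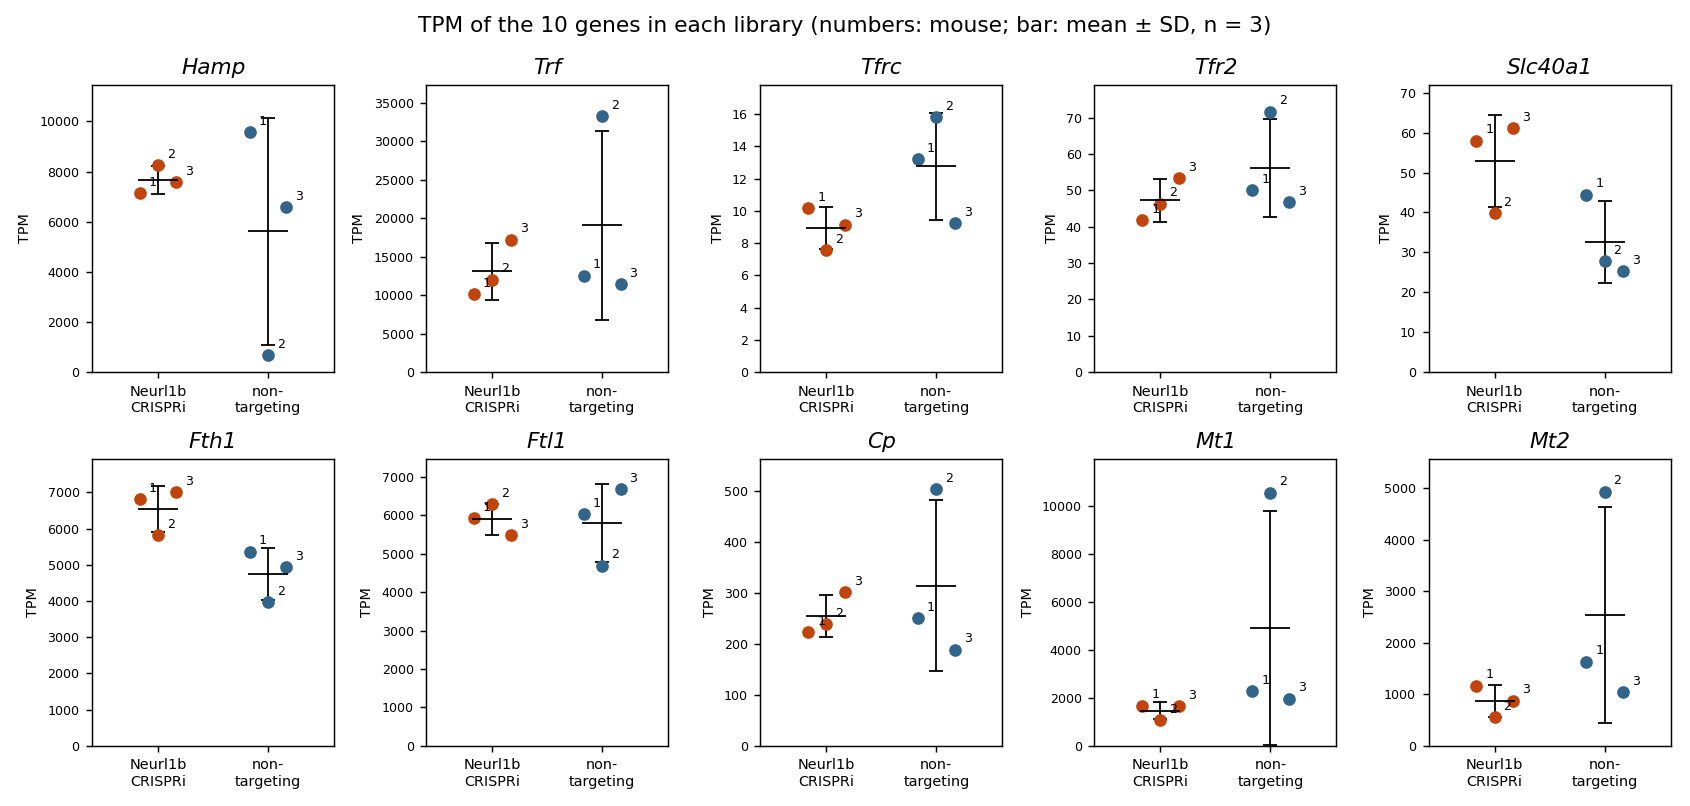
TPM of each of the 10 genes (vertical axes, linear from 0) in the 3 Neurl1b CRISPRi and the 3 non-targeting mice, with mouse numbers, and with the mean and SD as bars (n = 3). Non-targeting mouse 2 lies far below the others for Hamp (684.6 TPM) and far above them for Trf (33260 TPM) and Mt1 (10547 TPM), and the groups are apart for Fth1 and Mt1.

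The levels spanned the range from plasma protein mRNA to rare receptor mRNA. Trf, the plasma iron carrier, averaged 16092 TPM over the 6 libraries and ranked 7 among all genes. Of that sum, 58.8% was assigned to a 433-nt transcript annotated as a retained intron and 22.1% to the 2571-nt coding transcript. The Trf rank therefore depends on how reads were assigned to its transcripts. Hamp averaged 6637 TPM, Ftl1 5850 TPM and Fth1 5649 TPM. These last 3 could not be put in a firm order, since Hamp exceeded Ftl1 in 4 of 6 libraries and Ftl1 exceeded Fth1 in 4 of 6. Mt1 averaged 3196 TPM, below Fth1 in 5 of 6 libraries, and Mt2 averaged 1704 TPM, below Mt1 in all 6. Then came Cp at 285.1 TPM, Tfr2 at 51.6 TPM and Slc40a1 at 42.8 TPM, the last of which was below Tfr2 in 4 of 6 libraries. Tfrc was lowest at 10.9 TPM (rank 5094), below Slc40a1 in all 6. The highest library stood 14.0-fold above the lowest for Hamp, 9.79-fold for Mt1 and 8.80-fold for Mt2, but 1.42-fold for Ftl1.

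The hormone gene Hamp did not separate the groups. It had 7141, 8254 and 7588 TPM in the Neurl1b CRISPRi mice, against 9579, 684.6 and 6575 TPM in the non-targeting mice. The Neurl1b CRISPRi values lay within the span of non-targeting mice 1 and 3, and mouse 2 was about an order of magnitude below every other library. Means were 7661 ± 560 TPM in Neurl1b CRISPRi and 5613 ± 4525 TPM in non-targeting mice (SD, n = 3 each). The log2 fold change was 1.12 (SE 0.83; adjusted p = 0.508 in limma; exact two-sided permutation p = 0.7), and without non-targeting mouse 2 it was -0.05 (limma adjusted p = 0.936). Hamp2, the near copy, had 194.5, 301.3 and 181.5 TPM in Neurl1b CRISPRi, against 485.4, 38.1 and 588.6 TPM in non-targeting mice, again with mouse 2 lowest. Its log2 fold change was -0.02 (limma adjusted p = 0.991), and -1.28 without non-targeting mouse 2 (limma adjusted p = 0.336).

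The ratio of the copies did separate the groups. Hamp over Hamp2 was 36.7, 27.4 and 41.8 in Neurl1b CRISPRi, against 19.7, 18.0 and 11.2 in non-targeting mice. This ratio was computed after the values were seen and was not tested, and reads that match both transcripts were divided by estimation.

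Readouts of BMP-SMAD signalling were low in the same non-targeting mouse. Id1, an inhibitor of differentiation that BMPs induce, had 71.7, 79.7 and 68.7 TPM in Neurl1b CRISPRi, against 113.8, 7.08 and 66.9 TPM in non-targeting mice. Smad7, the inhibitory SMAD, had 4.88, 4.40 and 4.11 TPM in Neurl1b CRISPRi, against 5.30, 0.925 and 2.39 TPM in non-targeting mice. Bmp6, the ligand that endothelial cells make when iron is high, had 12.6, 9.31 and 6.44 TPM in Neurl1b CRISPRi, against 7.26, 1.48 and 3.41 TPM in non-targeting mice. The Id1 and Smad7 groups overlapped. Bmp6 had a log2 fold change of 1.18 (SE 0.42; adjusted p = 0.344 in limma), 0.75 without non-targeting mouse 2 (limma adjusted p = 0.766) and 1.62 without non-targeting mouse 1 (limma adjusted p = 0.0273, where 23.1% of all tested genes were called higher). With that mouse left out and median-of-ratios scaling it was 1.34 (limma adjusted p = 0.0718). The pull-down of GFP-tagged ribosomes is meant to leave out RNA of cells without the plasmid, such as endothelial cells, macrophages and red cell precursors. Endothelial markers summed to 27.6 to 46.3 TPM in Neurl1b CRISPRi and to 23.3 to 33.4 TPM in non-targeting mice. Of these, 5 of 6 tested ones had a log2 fold change above 0 (74% of all tested genes), and none of the 10 was at 0 in all libraries. Bmp6 itself is in this list of 10 and among its 6 tested genes, so the sums and the count contain the Bmp6 values. The part of endothelial cells in the Bmp6 values was not tested.

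Of 24 listed genes of this BMP arm, 21 were tested and none passed the adjusted threshold. Of these, 20 had a log2 fold change above 0, against 74% of all tested genes, with a median of 0.31 against 0.18 over all tested genes. At an unadjusted p below 0.05 there were 3 higher and 1 lower, against 10.1% and 3.19% of all tested genes. Without non-targeting mouse 2 there were 17 above 0, against 71.1% of all genes in that setting, with medians of 0.15 and 0.13. In that setting 1 was higher and 1 lower at an unadjusted p below 0.05, against 4.11% and 2.46% of all genes. The BMP co-receptor hemojuvelin (Hjv) had 146.0, 135.9 and 126.1 TPM in Neurl1b CRISPRi, against 123.1, 79.7 and 101.8 TPM in non-targeting mice, which did not overlap (log2 fold change 0.44, limma adjusted p = 0.372, and 0.28 without non-targeting mouse 2). Bmp2 had 2.29, 2.58 and 1.56 TPM in Neurl1b CRISPRi, against 1.24, 0.650 and 1.05 TPM in non-targeting mice (log2 fold change 0.66, limma adjusted p = 0.330). Fgl1, a hepatocyte protein that antagonises BMPs and so lowers Hamp in mice, had 204.9, 225.8 and 273.4 TPM in Neurl1b CRISPRi, against 333.9, 1442 and 332.9 TPM in non-targeting mice. Its groups did not overlap, and the log2 fold change was -1.22 (limma adjusted p = 0.367), or -0.52 without non-targeting mouse 2 (limma adjusted p = 0.626). The iron-sensing partner Hfe and the hemojuvelin protease Tmprss6 had log2 fold changes of 0.26 and 0.05, with limma adjusted p = 0.479 and 0.872, and Tmprss6 had 0.15 without non-targeting mouse 2.

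The interleukin 6 arm pointed the other way in non-targeting mouse 2. Of its 16 genes, that mouse was the highest library for 12, where it was the highest for 1175 of all 10598 tested genes. Saa1, an acute phase protein, had 33.0, 42.0 and 42.2 TPM in Neurl1b CRISPRi, against 78.7, 2670 and 102.8 TPM in non-targeting mice, which did not overlap. On the log2 scale Saa1 differed by -2.82 (SE 1.13; adjusted p = 0.358 in limma), and by -1.19 without non-targeting mouse 2 (limma adjusted p = 0.250). Itih4, another acute phase plasma protein, had 109.1, 132.8 and 195.7 TPM in Neurl1b CRISPRi, against 210.5, 1470 and 379.3 TPM in non-targeting mice (log2 fold change -1.78, limma adjusted p = 0.344, and -0.99 without non-targeting mouse 2, limma adjusted p = 0.626). Over the 16 genes 12 had a log2 fold change below 0, against 26% of all tested genes, with a median of -0.86. At an unadjusted p below 0.05 there were 4 lower, against 3.19% of all tested genes, and none passed the adjusted threshold. The median was -0.24 when non-targeting mouse 2 was left out, with 11 of 16 below 0 and 5 lower at an unadjusted p below 0.05, against 2.46% of all genes tested in that setting. Socs3, the feedback inhibitor that STAT3 induces, was at a log2 fold change of 0.11 (limma adjusted p = 0.872), and of 0.25 without non-targeting mouse 2. The plot of the hepcidin and acute phase genes shows both sets by library.

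**Figure D2:**
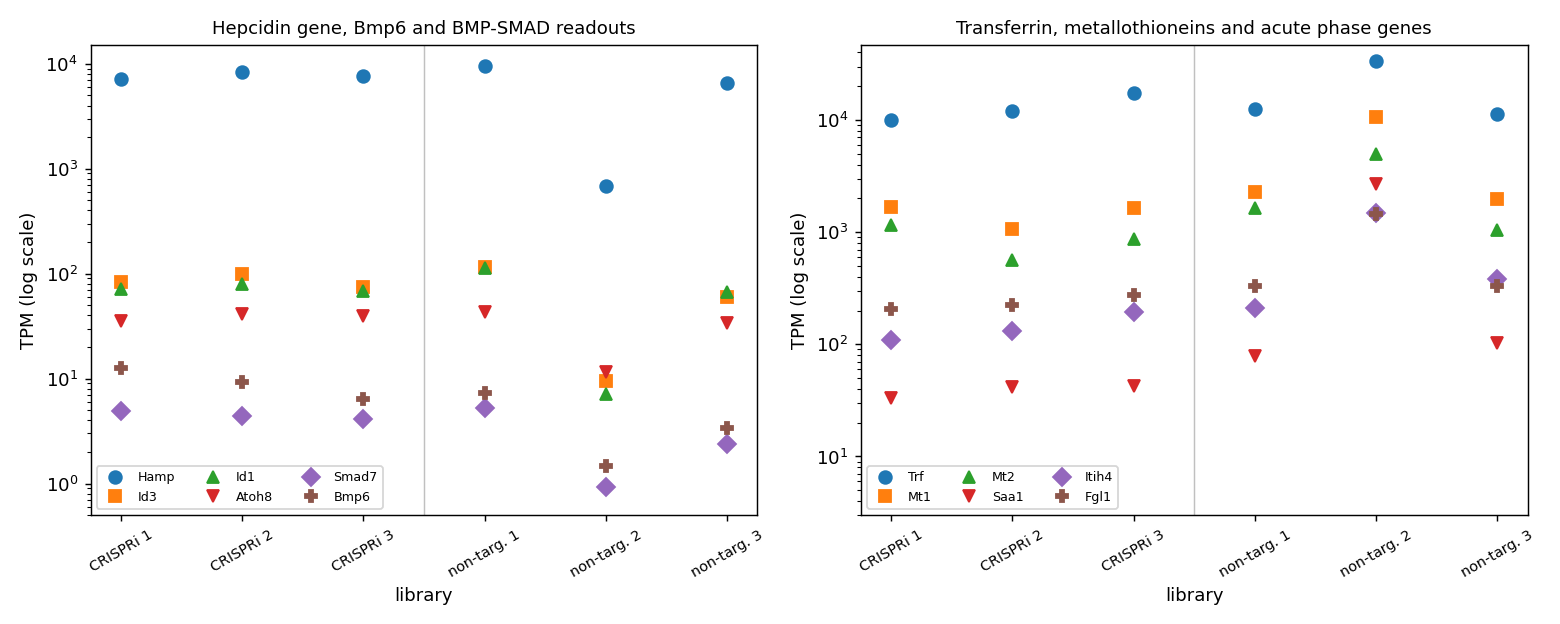
TPM on a log axis in each of the 6 libraries, Neurl1b CRISPRi mice on the left of the line and non-targeting mice on the right, for Hamp with BMP-SMAD readouts (first panel) and for Trf, Mt1, Mt2 and acute phase genes (second panel). In non-targeting mouse 2 Hamp (684.6 TPM), Id1 (7.08 TPM) and Smad7 (0.925 TPM) are at their lowest while Saa1 (2670 TPM), Mt1 (10547 TPM) and Trf (33260 TPM) are at their highest.

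The genes whose pattern over the 6 libraries was most like that of Hamp were Cyp2d9 (a cytochrome P450), Kif5b (a kinesin heavy chain) and Atoh8 (a BMP-responsive transcription factor). Among 6708 candidates their Pearson r of log2(TPM + 1) with Hamp was 0.999, 0.997 and 0.996. Without non-targeting mouse 2 these were 0.936, 0.898 and 0.942 over 5 libraries. Atoh8 had 35.1, 40.8 and 39.8 TPM in Neurl1b CRISPRi, against 43.2, 11.7 and 33.7 TPM in non-targeting mice. Id1 ranked 5 and Id3 ranked 7 by the same measure, and Id3 was named after its values were seen. All of these values share their 6 libraries and the TPM scale.

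Transferrin (Trf) carries iron in plasma. It had 10101, 12021 and 17239 TPM in Neurl1b CRISPRi, against 12539, 33260 and 11395 TPM in non-targeting mice. The groups overlapped, and non-targeting mouse 2 was the highest library. Means were 13120 ± 3694 TPM in Neurl1b CRISPRi and 19064 ± 12307 TPM in non-targeting mice (SD, n = 3 each), with a log2 fold change of -0.39 (SE 0.40; adjusted p = 0.614 in limma; exact two-sided permutation p = 0.6). Without non-targeting mouse 2 the log2 fold change was 0.10 (limma adjusted p = 0.908). By transcript, 58.8% of the summed TPM was assigned to a 433-nt transcript annotated as a retained intron, ENSMUST00000190051, and 22.1% to the 2571-nt coding transcript ENSMUST00000035158. Since TPM divide by length, the short transcript carries a larger share of TPM than of sequenced bases. The 2571-nt coding transcript alone had 2530, 2797 and 4060 TPM in Neurl1b CRISPRi, against 3268, 6642 and 2059 TPM in non-targeting mice, with mouse 2 again highest.

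Transferrin receptor 1 (Tfrc) takes up transferrin-bound iron, and its mRNA carries the 4 hairpins printed above. It had 10.2, 7.56 and 9.15 TPM in Neurl1b CRISPRi, against 13.2, 15.8 and 9.24 TPM in non-targeting mice. The highest Neurl1b CRISPRi value exceeded the lowest non-targeting value, so the groups overlapped. Means were 8.95 ± 1.30 TPM in Neurl1b CRISPRi and 12.8 ± 3.31 TPM in non-targeting mice (SD, n = 3 each), and the log2 fold change was -0.45 (SE 0.22; adjusted p = 0.404 in limma; exact two-sided permutation p = 0.2). It stayed below 0 with each mouse left out, and was -0.29 without non-targeting mouse 2 (limma adjusted p = 0.809). Of its TPM, 90.7% was assigned to ENSMUST00000128285, a 3527-nt transcript annotated as a retained intron that holds the same 4 hairpins. Red cell precursors are rich in Tfrc, and their markers summed to 1568, 490.9 and 1142 TPM in Neurl1b CRISPRi, against 940.5, 3882 and 1140 TPM in non-targeting mice, with mouse 2 the only one outside the Neurl1b CRISPRi range. All 6 tested markers had a log2 fold change below 0 (median -0.72), against 26% of all tested genes, and 5 of 6 without non-targeting mouse 2 (median -0.08). None of the 10 was at 0 in all libraries, and their part in the Tfrc values was not tested. Among the genes most like Tfrc were Raph1 (a Ras-binding adaptor protein) and Aig1, with r of 0.989 and 0.964 over 6 libraries and 0.986 and 0.933 without non-targeting mouse 2.

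Transferrin receptor 2 (Tfr2) is a hepatocyte sensor of transferrin saturation that works upstream of Hamp. It had 41.9, 46.3 and 53.4 TPM in Neurl1b CRISPRi, against 50.0, 71.6 and 46.6 TPM in non-targeting mice. The groups overlapped, with non-targeting mouse 2 highest. Tfr2 had a log2 fold change of -0.23 (SE 0.20; adjusted p = 0.573 in limma; exact two-sided permutation p = 0.4), and -0.04 without non-targeting mouse 2 (limma adjusted p = 0.952). The ratio of Tfr2 over Tfrc was 4.12, 6.12 and 5.83 in Neurl1b CRISPRi, against 3.79, 4.53 and 5.05 in non-targeting mice, which overlapped.

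Ferroportin (Slc40a1), the exporter, had a higher mean in Neurl1b CRISPRi, with 1 mouse of each group overlapping. It had 58.0, 39.8 and 61.2 TPM in Neurl1b CRISPRi, against 44.5, 27.9 and 25.4 TPM in non-targeting mice. Neurl1b CRISPRi mouse 2 lay below non-targeting mouse 1, and the remaining Neurl1b CRISPRi mice lay above every non-targeting mouse. Means were 53.0 ± 11.5 TPM in Neurl1b CRISPRi and 32.6 ± 10.4 TPM in non-targeting mice (SD, n = 3 each), a ratio of 1.63. For Slc40a1 the log2 fold change was 0.70 (SE 0.26, unadjusted p = 0.0240 and adjusted p = 0.344 in limma; exact two-sided permutation p = 0.2). It passed the threshold without non-targeting mouse 1 (0.94, limma adjusted p = 0.0293), a setting in which 23.1% of all tested genes were called higher and 2.24% lower, and not with that mouse left out and median-of-ratios scaling (0.60, limma adjusted p = 0.131). Without non-targeting mouse 2 it was 0.62 (limma adjusted p = 0.766).

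Macrophages of the liver also express Slc40a1, since they return iron from engulfed red cells. Macrophage markers summed to 119.9 to 174.6 TPM in Neurl1b CRISPRi and to 79.7 to 149.6 TPM in non-targeting mice. All 10 tested markers of 12 had a log2 fold change above 0 (median 0.46), against 74% of all tested genes (median 0.18). The groups were apart and higher for 4 of the 10, against 12.5% of all tested genes, and none of the 12 was at 0 in all libraries. Among them Csf1r, the receptor of macrophage growth factor, and Vsig4, a complement receptor of Kupffer cells, had log2 fold changes of 0.85 and 0.67 (limma adjusted p = 0.310 and 0.332). Their part in the Slc40a1 values was not tested.

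Ceruloplasmin (Cp) is the copper ferroxidase of plasma that loads exported iron onto transferrin. It had 223.8, 239.1 and 302.5 TPM in Neurl1b CRISPRi, against 251.1, 504.8 and 189.1 TPM in non-targeting mice. The groups overlapped, and non-targeting mouse 2 was highest. Cp had a log2 fold change of -0.19 (SE 0.33; adjusted p = 0.769 in limma; exact two-sided permutation p = 0.8), and 0.21 without non-targeting mouse 2 (limma adjusted p = 0.814). Of its TPM, 56.2% was assigned to a 674-nt transcript and 40.0% to the 4029-nt transcript ENSMUST00000091309.

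The ferritin heavy chain (Fth1) oxidises iron as it enters the storage shell. It had 6808, 5817 and 7007 TPM in Neurl1b CRISPRi, against 5363, 3960 and 4942 TPM in non-targeting mice. Every Neurl1b CRISPRi mouse lay above every non-targeting mouse. Means were 6544 ± 637 TPM in Neurl1b CRISPRi and 4755 ± 720 TPM in non-targeting mice (SD, n = 3 each), a ratio of 1.38. The log2 fold change was 0.47 (SE 0.17, unadjusted p = 0.0241 and adjusted p = 0.344 in limma; exact two-sided permutation p = 0.1, the smallest possible). With each mouse left out in turn it stayed between 0.34 (without non-targeting mouse 2, limma adjusted p = 0.725) and 0.56 (without non-targeting mouse 1, limma adjusted p = 0.0534). With median-of-ratios scaling it was 0.25 (limma adjusted p = 0.603).

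The ferritin light chain (Ftl1), which lines the shell and helps iron to mineralise, showed no such difference. It had 5931, 6283 and 5482 TPM in Neurl1b CRISPRi, against 6041, 4688 and 6673 TPM in non-targeting mice, and the groups overlapped. The log2 fold change was 0.04 (SE 0.17; adjusted p = 0.918 in limma; exact two-sided permutation p = 0.9), and its sign turned in several settings. Fth1 over Ftl1 was 1.15, 0.926 and 1.28 in Neurl1b CRISPRi, against 0.888, 0.845 and 0.741 in non-targeting mice. The ratio of heavy to light chain in ribosome-bound mRNA therefore did not overlap between groups. Both chains carry the hairpin in the 5′ UTR. Fth1 over Tfrc, genes with the hairpin at opposite ends of the mRNA, was 671, 769 and 766 in Neurl1b CRISPRi, against 406, 250.3 and 535 in non-targeting mice, also with no overlap. These ratios were computed after the values were seen and were not tested. They compare ribosome-bound mRNA, and total mRNA was not measured here. A pseudogene transcript, Ftl1-ps1, matched Ftl1 at 99.5% of 208 aligned positions, out of transcripts of 968 and 491 nt, so reads of that stretch are uncertain.

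**Figure D3:**
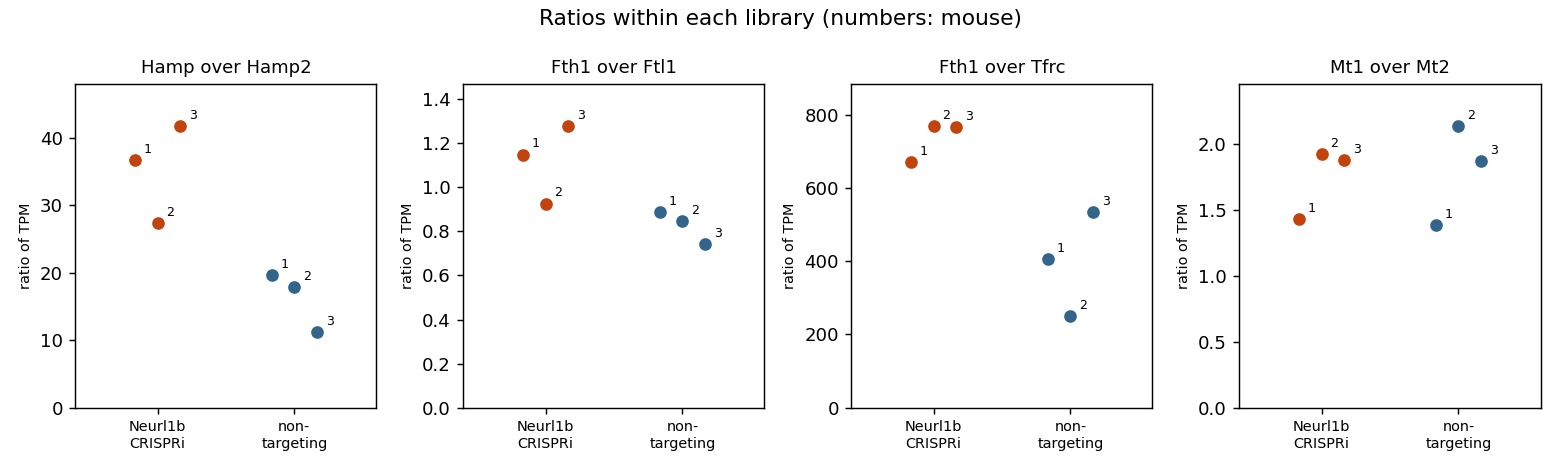
Ratio of TPM within each library (vertical axes from 0) for Hamp over Hamp2, Fth1 over Ftl1, Fth1 over Tfrc and Mt1 over Mt2, with Neurl1b CRISPRi mice on the left, non-targeting mice on the right and mouse numbers beside the points. The groups are apart in the first 3 panels, for instance 27.4 to 41.8 against 11.2 to 19.7 for Hamp over Hamp2, and overlap for Mt1 over Mt2.

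Metallothionein 1 (Mt1) and metallothionein 2 (Mt2), neighbours on chromosome 8, had lower means in Neurl1b CRISPRi, short of the adjusted threshold. Mt1 had 1673, 1077 and 1651 TPM in Neurl1b CRISPRi, against 2266, 10547 and 1961 TPM in non-targeting mice. Mt2 had 1169, 560.6 and 878.0 TPM in Neurl1b CRISPRi, against 1636, 4936 and 1047 TPM in non-targeting mice. For Mt1 every Neurl1b CRISPRi mouse lay below every non-targeting mouse. For Mt2 the highest Neurl1b CRISPRi mouse lay above non-targeting mouse 3. Non-targeting mouse 2 was the highest library for both.

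Mt1 averaged 1467 ± 338 TPM in Neurl1b CRISPRi and 4924 ± 4871 TPM in non-targeting mice (SD, n = 3 each). The Mt1 log2 fold change was -1.33 (SE 0.57, unadjusted p = 0.0469 and adjusted p = 0.371 in limma; exact two-sided permutation p = 0.1). For Mt2 the log2 fold change was -1.29 (SE 0.52, unadjusted p = 0.0370 and adjusted p = 0.359 in limma; exact two-sided permutation p = 0.2). Without non-targeting mouse 2 the values were -0.55 for Mt1 and -0.65 for Mt2 (limma adjusted p = 0.700 and 0.766), so the sign held at a smaller size. Mt1 over Mt2 was 1.43, 1.92 and 1.88 in Neurl1b CRISPRi, against 1.39, 2.14 and 1.87 in non-targeting mice: the ratio stayed between 1.39 and 2.14 while Mt1 itself spanned 9.79-fold. Most like Mt1 were Rnaset2a (a lysosomal ribonuclease), Fgb (fibrinogen beta chain) and Apcs (serum amyloid P), each with r of 0.98 over 6 libraries, and 0.848, 0.836 and 0.813 without non-targeting mouse 2.

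The neighbouring gene Mt3 ran the other way. It had 72.9, 79.3 and 35.4 TPM in Neurl1b CRISPRi, against 29.4, 13.9 and 29.4 TPM in non-targeting mice, which did not overlap. The difference on the log2 scale was 1.32 (SE 0.37, unadjusted p = 0.00681 and adjusted p = 0.323 in limma), and 0.98 without non-targeting mouse 2 (limma adjusted p = 0.626). Mt2 over Mt3 was 16.0, 7.07 and 24.8 in Neurl1b CRISPRi, against 55.7, 354 and 35.6 in non-targeting mice, with no overlap. Mt3 was named for its small p, so this ratio was chosen after its values were seen, and it was not tested.

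**Figure D4:**
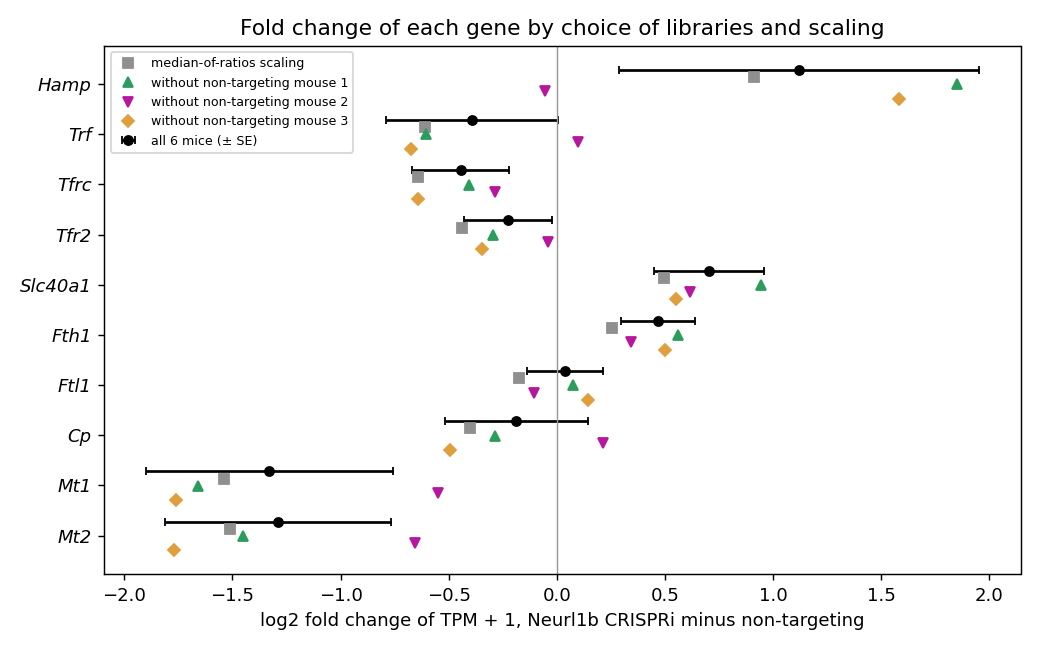
Log2 fold change of TPM + 1 (horizontal axis), Neurl1b CRISPRi minus non-targeting, for each of the 10 genes with all 6 mice (black, bar: SE), with median-of-ratios scaling and with each non-targeting mouse left out. Hamp moves to -0.05 without non-targeting mouse 2. In every setting drawn Slc40a1 and Fth1 remain above 0, and Tfrc, Tfr2, Mt1 and Mt2 remain below 0.

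Other genes of metal handling were counted in lists, and no listed gene passed the adjusted threshold with all mice. Without non-targeting mouse 1, 20 of the 44 other genes followed through the alternatives passed, and 4 did with median-of-ratios scaling as well. Over all tested genes 2673 of 10558 passed without that mouse, and 473 did with the scaling as well. Part of the 44 had been picked for a small p with all mice, so their counts do not describe the lists. Of 30 zinc and copper genes 27 were tested: 21 had a log2 fold change above 0 (median 0.24), against 74% of all tested genes. At an unadjusted p below 0.05 there were 4 higher and 2 lower, against 10.1% and 3.19% of all tested genes. Of the 27 tested genes the groups were apart and higher for 6, against 12.5% of all tested genes. They were apart and lower for 3, against 4.57%. The zinc importer Slc39a5 had a log2 fold change of -0.66 and the manganese exporter Slc30a10 one of -0.58 (limma adjusted p = 0.310 and 0.339), and the groups did not overlap for either. Both lay near the filter of 1 TPM, with means of 1.93 and 1.12 TPM over the 6 libraries. Mtf1, the metal sensor, stood at -0.01, the zinc exporter Slc30a1 at 0.24, the zinc importer Slc39a4 at 0.37 and the copper pump Atp7b at 0.30 (log2 fold change, limma adjusted p = 0.975, 0.543, 0.404 and 0.461), and Mtf1 at 0.02 without non-targeting mouse 2. Of 10 glucocorticoid readouts, 8 had a log2 fold change above 0 (median 0.26), against 74% of all tested genes, and the phosphatase gene Dusp1 had 1.04 (limma adjusted p = 0.310).

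For cellular iron transport and its regulators, 17 of 23 genes were tested, and 15 of them had a log2 fold change above 0 (median 0.29), against 74% of all tested genes. At an unadjusted p below 0.05 there were 2 higher, against 10.1% of all tested genes, and none lower. Ncoa4, the receptor that delivers ferritin to lysosomes, had 0.55, and the iron regulatory proteins Aco1 and Ireb2 had 0.34 and 0.23 (log2 fold change, limma adjusted p = 0.436, 0.547 and 0.634). Leaving out non-targeting mouse 2 gave 0.20 for Aco1, 0.11 for Ireb2 and 0.36 for Slc48a1, a heme transporter. Fbxl5, which marks Ireb2 for degradation when iron is high, had 0.45, the endosomal reductase Steap3 0.51, Slc48a1 0.56 and the giant E3 ligase Herc2 0.66 (limma adjusted p = 0.394, 0.381, 0.375 and 0.331). The importers Slc39a14 and Slc11a2 had -0.50 and 0.02 (limma adjusted p = 0.461 and 0.963), and -0.14 and 0.13 without non-targeting mouse 2 (limma adjusted p = 0.880 and 0.883).

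Heme breakdown releases iron, and its first enzyme varied widely. Hmox1, heme oxygenase 1, had 153.7, 153.6 and 120.7 TPM in Neurl1b CRISPRi, against 125.4, 13.5 and 31.6 TPM in non-targeting mice. Neurl1b CRISPRi mouse 3 lay below non-targeting mouse 1, so the groups overlapped. Hmox1 had a log2 fold change of 1.87 (SE 0.65; adjusted p = 0.344 in limma), 1.15 without non-targeting mouse 2 (limma adjusted p = 0.732) and 2.72 without non-targeting mouse 1 (limma adjusted p = 0.0173), or 2.38 with median-of-ratios scaling as well (limma adjusted p = 0.0369). Macrophages express Hmox1 too, and the macrophage marker sums given for Slc40a1 apply here; their part was not tested. Blvrb, a biliverdin reductase, had 1223, 1078 and 861.3 TPM in Neurl1b CRISPRi, against 784.0, 332.3 and 616.5 TPM in non-targeting mice, which did not overlap (log2 fold change 0.94, limma adjusted p = 0.339, and 0.58 without non-targeting mouse 2, limma adjusted p = 0.626). Alas1, the first enzyme of heme synthesis in liver, had a log2 fold change of 1.00 and the plasma scavengers Hp and Hpx had -0.76 and -0.21 (limma adjusted p = 0.375, 0.515 and 0.783). With non-targeting mouse 2 left out these were 0.56 for Alas1, -0.04 for Hp and 0.32 for Hpx (limma adjusted p = 0.792, 0.970 and 0.784). Of 21 genes of heme handling 14 lay above 0 (median 0.15), against 74% of all tested genes (median 0.18), with 4 higher at an unadjusted p below 0.05 (10.1% of all).

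Iron-sulfur cluster assembly was also counted. Of 24 tested genes 19 had a log2 fold change above 0, against 74% of all tested genes, with a median of 0.17 beside the 0.18 of all tested genes. Ciapin1, an electron carrier of cytosolic cluster assembly, had 42.1, 41.7 and 42.7 TPM in Neurl1b CRISPRi, against 35.0, 14.7 and 18.1 TPM in non-targeting mice, which did not overlap (log2 fold change 0.97, limma adjusted p = 0.323). The hepatocyte markers that check the tissue label summed to 25452 to 34524 TPM in Neurl1b CRISPRi and to 29467 to 60055 TPM in non-targeting mice, and none of the 10 was at 0 in all libraries. Albumin (Alb) had a log2 fold change of -0.52 (limma adjusted p = 0.447), and of -0.15 without non-targeting mouse 2 (limma adjusted p = 0.849).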

How the data were processed

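Ribosome-bound poly(A) RNA from 6 livers was analysed from a table of TPM per transcript deposited by the authors. The submitters' processing notes name kallisto and the build mm39; they give no version, transcript set or filter. TPM keep no depth, so no counting interval can be given, and near-identical transcripts share reads by estimation. Transcripts were summed by symbol. After a filter at a mean of 1 TPM, log2(TPM + 1) values were compared in R 4.3.3 by limma 3.58.1 (trended prior, two-sided, Benjamini-Hochberg over all 10598 genes). This scale understates fold changes of low genes; single values were also compared by exact permutation. The fit was run on simulated data with independent noise of equal spread in both groups. That simulation held no outlying mouse and no off-centre median, so it does not show how the fit behaves with them. The 10 genes, the lists and the tests were chosen with earlier results of these data known. Named are the 10 genes, at most 4 genes of smallest p per list, a fixed set of regulators, and the 3 genes most like Hamp, Tfrc and Mt1 among those of at least 5 TPM; 1 gene that this rule takes is not reported here, and exceptions are said to be so. Alternatives were other pseudocounts, filters, scalings and priors, a threshold of 0.1, the mouse number as a block, each mouse left out, the main transcript alone, and near-identical symbols added. Groups and mouse numbers come from the sample titles. Reference sequences are from RefSeq (GRCm38.p6) and GENCODE vM21 (GRCm38), another build than the table's, matched by symbol or transcript ID.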

Additional observations from a re-analysis of the deposited data

How the results depend on the processing

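None of the 10 genes passed the adjusted threshold in limma with all mice under any other pseudocount, filter, scaling or prior tried, or at an adjusted p of 0.1. At an unadjusted p below 0.05 there were 4 of them, 1 with no filter, 3 with a mean of at least 5 TPM or median-of-ratios scaling, and 0 to 4 with 1 mouse left out. All tested genes gave 1408 of 10598, 2132 of 21941 with no filter and 922 of 6970 with a mean of at least 5 TPM. They gave 1388 of 10598 with median-of-ratios scaling, and 581 of 10543 to 4665 of 10558 with 1 mouse left out. Leaving out 1 mouse at a time put 0 to 1 of the 10 genes past the adjusted threshold, the 1 being Slc40a1 without non-targeting mouse 1. Over all tested genes the count was 2, and it was 0 with a pseudocount of 5 (1404 at an unadjusted p below 0.05), 0 with no filter (2132 unadjusted) and 1 with a mean of at least 5 TPM. With 1 mouse left out it ranged from 0 to 2673, the highest without non-targeting mouse 1. Dropping a non-targeting mouse and rescaling by median of ratios, a setting added after seeing the data, gave 473 genes for mouse 1 and 0 for mouse 2 (871 unadjusted). Mouse numbers did not pair the samples: same-numbered deviations correlated at 0.06, -0.10 and -0.28, and 1 of 6 libraries correlated best with its own number. With the mouse number as a replicate block 2 genes passed, none of the 10.

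Of 173 alternative log2 fold changes of the 10 genes, 10 changed sign. With 1 mouse left out at a time, Hamp ranged from -0.0535 to 1.85, Trf from -0.675 to 0.0978, Cp from -0.492 to 0.214 and Ftl1 from -0.108 to 0.146; all 4 turned without non-targeting mouse 2. Among other genes Hamp2 ranged from -1.28 to 0.68, Id1 from -0.25 to 1.66, Hpx from -0.495 to 0.318, Socs3 from -0.312 to 0.393, Slc11a2 from -0.168 to 0.129, Tmprss6 from -0.0357 to 0.148 and Mtf1 from -0.0827 to 0.0247. Median-of-ratios scaling alone turned Ftl1 to -0.177, Tmprss6 to -0.162, Socs3 to -0.0389 and Slc11a2 to -0.163, and rescaling without abundant genes turned Slc11a2 to -0.00292. The same scaling without non-targeting mouse 2 gave Hamp -0.209, Ftl1 -0.264, Cp 0.0592, Id1 -0.404, Id3 -0.121, Ireb2 -0.0177, Hpx 0.162, Tmprss6 -0.00595 and Slc11a2 -1.81e-06. Without non-targeting mouse 1 it gave Ftl1 -0.278, Hfe -0.017, Tmprss6 -0.308, Slc11a2 -0.2 and Hamp2 0.191. The cause was not tested. TPM without counts leave the precision of the lowest genes unknown.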

Other observations

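Some transcripts of the 10 genes varied apart from their gene, and were chosen after their values were seen. Trf transcript ENSMUST00000170904 had 275.5, 217.7 and 305.5 TPM in Neurl1b CRISPRi, against 323.6, 18.8 and 3.13 TPM in non-targeting mice, so non-targeting mice 2 and 3 were low while the Trf sum of mouse 2 was the highest. Tfr2 transcript ENSMUST00000031729, which held 56.9% of the Tfr2 TPM, had 21.4, 21.8 and 26.1 TPM in Neurl1b CRISPRi, against 20.9, 47.9 and 38.0 TPM in non-targeting mice. Ftl1 transcript ENSMUST00000210375, a processed transcript, had 338.5 TPM in non-targeting mouse 3 and between 1.07 and 9.87 TPM in the remaining 5 libraries.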
